A study of Mus musculus with 6 samples.

Results

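The exon junction complex is a set of proteins that the spliceosome leaves on messenger RNA just upstream of each joined exon pair. These data cover its genes in mouse hearts with a knockout of the splicing factor gene Srsf4, whose RNA was lowered but not absent. The set was chosen by gene symbol from the deposited table: the core genes Eif4a3, Magoh, Magohb, Rbm8a and Casc3, the peripheral genes Rnps1, Acin1, Sap18 and Pnn, and Cwc22, which encodes the factor that loads the core. All 10 of these genes were found among the 12824 genes of the table, and all 10 passed the filter on low counts. Cwc22 was put in the set with its difference between the groups known. Its values are therefore given as a description, with no test. The other genes were chosen as parts of the complex, but also with earlier results of these data known. Their p-values are to be read with that in mind.

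Messenger RNA was measured in whole hearts of 6 C57BL/6 mice aged 2 months. The 3 knockout hearts (KO) had the genotype SRSF4flox/flox;NKx2.5-Cre, in which the Cre recombinase is driven by a cardiac transcription factor gene. The 3 control hearts had the genotype SRSF4flox/flox and no Cre, so no group carries an unfloxed Srsf4 gene and no group carries Cre alone. Libraries were made from poly(A)-selected RNA, and the comparison asks how heart transcripts differ when Srsf4 is deleted in cells that expressed this driver.

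In the core, EIF4A3 is an RNA helicase that clamps onto RNA, MAGOH and the RBM8A protein (Y14) form a pair that locks the clamp, and CASC3 joins them. CWC22 binds EIF4A3 in the spliceosome and holds it in an open state until it is placed on the RNA. RNPS1, ACIN1, SAP18 and PNN form peripheral complexes, with RNPS1 and SAP18 joined by either ACIN1 or PNN, and these are known to take part in splice site choice. The complex marks spliced messages for export, translation and, where a stop codon lies upstream of it, nonsense-mediated decay (NMD).

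The libraries held 59810975 to 74941323 estimated read counts. Srsf4 was lower in every KO heart, with 10.8, 10.1 and 8.39 CPM (counts per 1000000 counts of the library, scaled by the TMM method) in KO 1 to 3 and 22.1, 23.5 and 23.7 CPM in controls 1 to 3, so the libraries followed their labels. Of 12686 genes tested with edgeR's quasi-likelihood test, 765 passed at an adjusted p of 0.05, which is 6.03% of them, with 3.29% higher and 2.74% lower in KO. KO and control values did not overlap in 27.2% of genes. KO 1 stood apart from the other KO hearts: it had the highest of the 3 KO values in 41.2% of tested genes and in all 10 genes of the set. The library names of the KO hearts start with a different code from those of the controls, so a batch that follows this code cannot be told apart from genotype. The 8 cardiomyocyte markers were all detected, and their summed level was 59471 to 66922 CPM in KO and 62338 to 64060 CPM in controls. No tested endothelial, fibroblast, macrophage or erythroid marker passed. The 5 endothelial markers summed to 311 to 540 CPM in KO and 432 to 461 CPM in controls, and the 5 fibroblast markers to 260 to 534 and 428 to 443 CPM. The 4 tested macrophage markers summed to 35.9 to 48.3 and 46.6 to 58.3 CPM, and the 5 erythroid ones to 228 to 753 and 429 to 575 CPM. The 4 smooth muscle markers summed to 88.3 to 92.6 CPM in KO and 119 to 198 CPM in controls, with Acta2, smooth muscle actin, called lower. No tested marker of these lists was at 0 in any library. The part of that difference in the values below was not tested, and in whole hearts fewer cells of a type and less RNA per cell cannot be told apart.

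Cwc22 (ENSMUSG00000027014) lies on chromosome 2, from 77881159 to 77946375 on the minus strand (GRCm38). It had the largest difference in the set, with 5.70-fold more RNA in KO hearts. Its level was 68.2 CPM in KO 1, 43.3 CPM in KO 2 and 41.9 CPM in KO 3. The controls had 8.70, 9.17 and 9.04 CPM. Every KO heart was far above every control, the controls lay close together and KO 1 was the highest. The group means were 51.1 ± 14.8 CPM and 8.97 ± 0.241 CPM (SD, n = 3 each), a log2 fold change of 2.51 (SE 0.20). Without KO 1 the log2 fold change was 2.25.

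Mouse Cwc22 has near-identical copies elsewhere on its chromosome, and the segment that holds the gene is known to vary in copy number among mouse strains. The copies bear on its counts, because the counting program named in the submitters' notes shares reads among similar transcripts by a model. GENCODE M21 has 7 such copies, and 6 of them were analysed here: Gm13691, Gm13693, Gm13694, Gm13696, Gm13697 and Gm13698. They lie between 83955693 and 83993045 on chromosome 2, 6.01 Mb from Cwc22. Their transcripts are identical to each other, 2493 bases long, and in each of the 6 the gene span equals the transcript length, so that they are annotated without introns. The coding sequence of Gm13691 differs from that of Cwc22 by 39 substitutions in 2471 aligned positions (98.42% identity, gaps not counted). The alignment also has 5 internal gaps, with 19 gap bases in Cwc22 and 21 in Gm13691. The coding sequences are 2724 and 2490 bases long. The 90-base stretch without gaps that has the most substitutions is printed here to show how few of them separate the pair. It covers coding positions 218 to 307 of Cwc22 and 221 to 310 of Gm13691, counted from the start codon, with the 7 differing bases in capitals.
Cwc22: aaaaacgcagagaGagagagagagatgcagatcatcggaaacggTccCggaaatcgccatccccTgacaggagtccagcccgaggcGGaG
Gm13691: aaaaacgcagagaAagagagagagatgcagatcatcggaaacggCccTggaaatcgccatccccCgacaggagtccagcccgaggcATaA

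All 6 copies were listed at 0 counts in all 3 controls and had counts in every KO heart. Each copy had 174 counts in KO 1, 112 in KO 2 and 111 in KO 3, the same numbers for all 6, whose transcripts are identical. This is 1.96 ± 0.464 CPM per copy in KO (SD, n = 3). A count of 0 allows a limit of 3 counts per control library, on average 0.0446 CPM. The KO mean of the counts assigned to each copy was 44.0 times that limit. The limit covers counting error only. It covers neither the spread between KO hearts nor the sharing of reads among Cwc22 and its copies by the counting model.

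**Figure D1:**
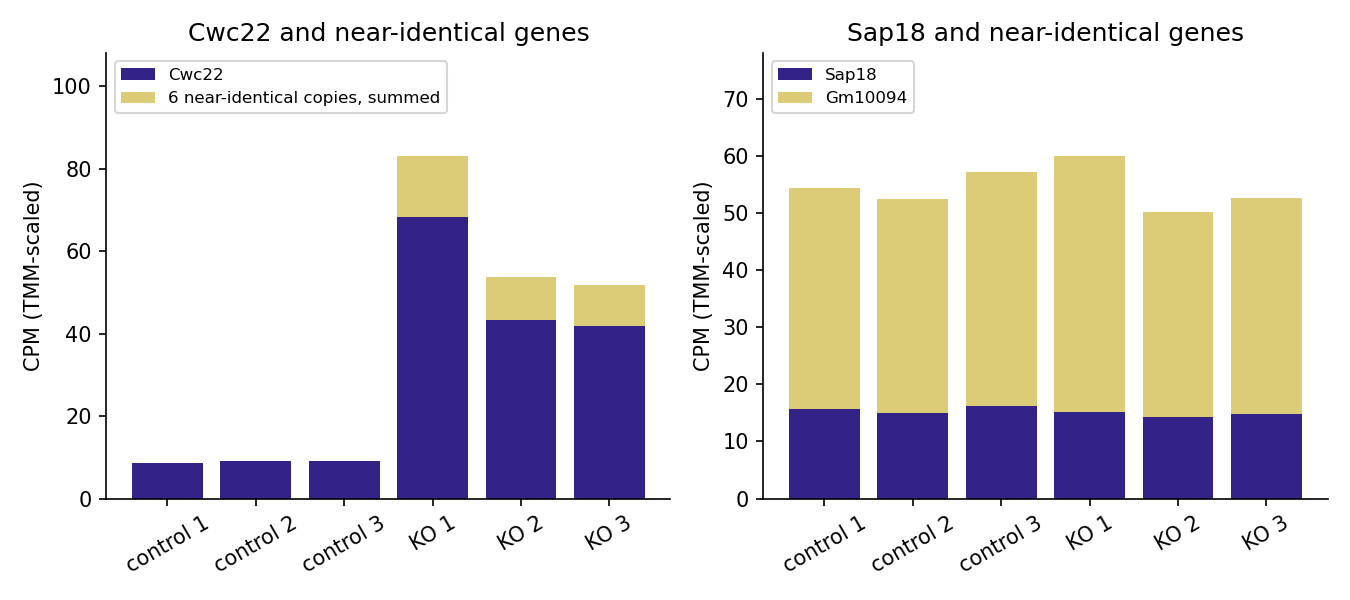
Stacked bars give CPM per heart for Cwc22 with its 6 copies (left) and for Sap18 with Gm10094 (right). The copies of Cwc22 contribute 9.89 to 15.0 CPM in KO hearts and are at 0 in controls, while Gm10094 holds most of the Sap18 sum in every heart.

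The copies made up 18.0%, 19.4% and 19.1% of the summed counts of the family in KO 1, 2 and 3. With Cwc22 and its copies summed, the level was 83.2, 53.8 and 51.8 CPM in KO 1 to 3. The controls kept the values given above, since their copies were at 0. The summed family was 62.9 ± 17.6 CPM against 8.97 ± 0.241 CPM (SD, n = 3 each), 7.01-fold higher in KO (log2 fold change 2.81, SE 0.19). The difference was thus present in the counts assigned to Cwc22 and in the sum. How the KO reads divide between Cwc22 and its copies cannot be settled from the counts.

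The surroundings of Cwc22 were read from the same fit. Of 6 tested genes within 1 Mb of it, 1 passed, the intergenic RNA gene Gm13943, with 1.53 ± 0.208 CPM in KO and 0.647 ± 0.0604 CPM in controls (SD, n = 3; edgeR adjusted p = 0.00933). The nearest, Zfp385b, a zinc finger gene, did not pass (log2 fold change -0.28, edgeR adjusted p = 0.301). The other 4 genes of this window were not called either. Their log2 fold changes were -0.11 for Ube2e3, -0.02 for Sestd1, -0.06 for Ccdc141 and 0.22 for Ttn, the gene of the giant sarcomere protein titin. Around the copies, 2 of 17 tested genes within 1 Mb passed, Tfpi and Tmx2. Over all tested genes 6.03% passed, and the counts of these windows were not tested against that share. Between Cwc22 and its copies lies Nup35, a nuclear pore gene singled out after its values were seen. Nup35 had 0.328 ± 0.0508 CPM in KO against 4.004 ± 0.508 CPM in controls (SD, n = 3, edgeR adjusted p = 7.29e-05). Dnajc10, also between them, was called higher in KO (log2 fold change 0.43, edgeR adjusted p = 0.0432). The other tested genes between them were not called.

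Rnps1 (ENSMUSG00000034681), on chromosome 17 from 24414675 to 24425895, differed in the opposite direction. RNPS1 binds RNA and activates splicing. Its gene had 17.3 CPM in KO 1, 14.6 CPM in KO 2 and 14.9 CPM in KO 3. The controls had 37.4, 39.4 and 41.3 CPM. Each KO value was less than the lowest control, with a wide gap between the groups. The means were 15.6 ± 1.498 CPM and 39.4 ± 1.96 CPM (SD, n = 3 each), 2.52-fold lower in KO (log2 fold change -1.33, SE 0.09, edgeR adjusted p = 0.000278). No near-identical copy of Rnps1 was found in the reference transcripts.

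Rnps1 lies 2.41 Mb from Nkx2-5, the gene whose regulatory sequence drives Cre in the KO mice. Nkx2-5 had 18.7, 19.6 and 20.9 CPM in KO 1 to 3 and 39.9, 36.4 and 38.0 CPM in controls 1 to 3, also with no overlap. Of 74 tested genes between Rnps1 and Nkx2-5, 6 passed (8.11%), 5 of them lower, where 6.03% of all tested genes passed and 2.74% were lower. Within 1 Mb of Rnps1, 6 of 57 tested genes passed (10.5%, beside the same 6.03%), 5 lower and 1 higher. Neither share was tested against that of all genes. Among them, D330041H03Rik, a gene on the opposite strand, ends at 24414542, just before the start of Rnps1, and had 0.868 ± 0.122 CPM in KO against 1.98 ± 0.290 CPM in controls (SD, n = 3; edgeR adjusted p = 0.0129). Eci1, a fatty acid oxidation gene, lies 0.000788 Mb beyond the other end of Rnps1. It had 282 CPM in KO and 250.0 CPM in controls and did not pass (edgeR adjusted p = 0.536). D330041H03Rik and Eci1 were singled out after their values were seen. Linkage to the Cre allele cannot be told apart from the loss of Srsf4 in this design, since every KO heart carries both.

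**Figure D2:**
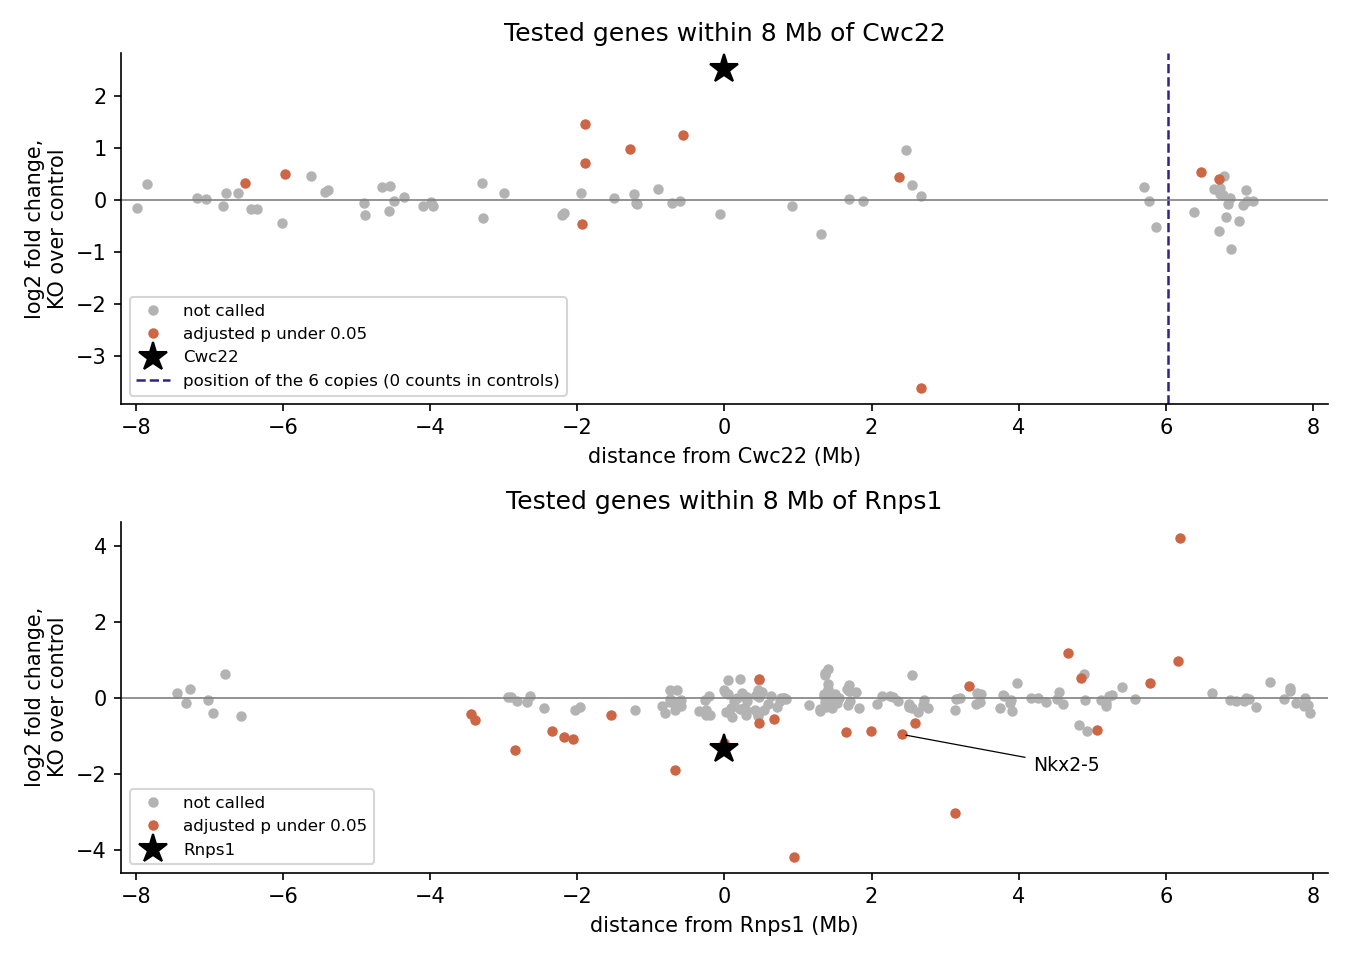
Each point is a tested gene other than the 6 copies of Cwc22, whose place is marked by a dashed line with no value, at its distance in Mb from Cwc22 (top) or Rnps1 (bottom), with its log2 fold change of KO over control on the vertical axis. Cwc22 at 2.51 lies above the plotted genes around it, and genes called lower lie on both sides of Rnps1, Nkx2-5 among them.

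Acin1 (ENSMUSG00000022185, chromosome 14, 54642161 to 54686931) encodes acinus, one of the scaffolds that join RNPS1 and SAP18. It had 32.7, 26.8 and 26.7 CPM in KO 1 to 3. The controls had 39.4, 38.1 and 37.7 CPM. The groups did not overlap and KO 1 lay nearest to the controls. The means were 28.7 ± 3.42 CPM and 38.4 ± 0.899 CPM (SD, n = 3 each), 1.34-fold lower in KO, just inside the threshold (log2 fold change -0.42, SE 0.10, edgeR adjusted p = 0.0497). The call was kept without KO 1 (log2 fold change -0.52, edgeR adjusted p = 0.00134). It was lost without any 1 of the other 5 libraries (edgeR adjusted p = 0.144 to 0.227), while the log2 fold change stayed between -0.43 and -0.37. The authors' deposited table gives an adjusted p of 0.0612. Acin1 overlaps the gene 1700123O20Rik on the other strand, which had 4.87 ± 0.834 CPM in KO and 6.43 ± 0.466 CPM in controls (SD, n = 3; edgeR adjusted p = 0.162), and the use of strand in counting is not given in the sources used here.

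Pnn (chromosome 12, 59066919 to 59074017) encodes pinin, the alternative scaffold. Its level was 21.4, 19.1 and 19.5 CPM in KO 1 to 3. In controls it was 22.9, 22.9 and 21.9 CPM. The KO values were below the controls by a small margin, and the difference did not pass (log2 fold change -0.17, SE 0.08, edgeR adjusted p = 0.25).

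Sap18 (chromosome 14, 57798180 to 57804980) encodes a small protein also found with the Sin3 deacetylase complex. It had 14.7 ± 0.499 CPM in KO and 15.6 ± 0.699 CPM in controls (SD, n = 3 each), with overlapping values (edgeR adjusted p = 0.605). Most reads of this family were assigned elsewhere. Gm10094, named Sap18b in GENCODE M21, is identical to Sap18 over 780 aligned bases and lies on another chromosome. It had 39.5 ± 4.64 CPM in KO and 39.0 ± 1.68 CPM in controls (SD, n = 3 each), 71.2 to 74.6% of the sum in single hearts. The sum of both had a log2 fold change of -0.01 (SE 0.09). How the reads divide between these genes cannot be settled from the counts.

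None of the 5 core genes passed. Near-identical copies of Eif4a3, Magohb and Rbm8a exist in the reference and were not analysed here. Eif4a3 (chromosome 11, 119288363 to 119300089) had 34.2, 30.2 and 29.7 CPM in KO 1 to 3. The controls had 31.3, 29.2 and 32.6 CPM. The ranges overlap almost fully (log2 fold change 0.01, SE 0.09, edgeR adjusted p = 0.952). The sign of this value turned with upper-quartile scaling and with total counts. Rbm8a (chromosome 3, 96629928 to 96633779) had 20.9, 16.9 and 17.9 CPM in KO and 19.2, 19.4 and 22.2 CPM in controls. These ranges overlap too (log2 fold change -0.13, SE 0.11, edgeR adjusted p = 0.557).

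Casc3 (chromosome 11, 98804905 to 98833814) was the core gene with the clearest separation. It had 15.8, 15.4 and 15.2 CPM in KO 1 to 3, and 18.0, 17.5 and 17.1 CPM in controls 1 to 3. All KO values were below all controls, but the difference was small and did not pass (log2 fold change -0.18, SE 0.07, edgeR adjusted p = 0.204). Its gene span overlaps Msl1 on the same strand, which had 58.7 ± 0.399 CPM in KO and 57.9 ± 1.03 CPM in controls (SD, n = 3; edgeR adjusted p = 0.899).

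MAGOH is encoded by a pair of genes in mammals. Magoh (chromosome 4, 107879755 to 107887424) had 15.0, 12.7 and 12.0 CPM in KO and 12.7, 12.2 and 15.0 CPM in controls (log2 fold change -0.01, SE 0.12, edgeR adjusted p = 0.974). Magohb (chromosome 6, 131284388 to 131293244) had 2.71, 1.64 and 2.41 CPM in KO and 2.84, 2.33 and 2.69 CPM in controls (log2 fold change -0.22, SE 0.20, edgeR adjusted p = 0.602). Values overlapped in both genes. The coding sequences share 81.28% of 438 aligned positions, far less than Cwc22 shares with its copies. Their most different 90-base stretch, at coding positions 5 to 94 of Magoh and 11 to 100 of Magohb, is shown for contrast with the Cwc22 pair, with the 23 differing bases in capitals.
Magoh: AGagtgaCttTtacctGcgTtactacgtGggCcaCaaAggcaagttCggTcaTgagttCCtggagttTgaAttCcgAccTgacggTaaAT
Magohb: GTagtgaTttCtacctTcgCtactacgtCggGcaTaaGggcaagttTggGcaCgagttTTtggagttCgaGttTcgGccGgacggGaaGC

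Magohb made up 15.3, 11.5 and 16.7% of the CPM of both genes in KO 1 to 3 and 18.3, 16.0 and 15.2% in controls 1 to 3. The means were 14.5 ± 2.71% and 16.5 ± 1.60% (SD, n = 3 each) and did not differ beyond their spread (exact permutation test, two-sided, p = 0.5; the smallest p of this design is 0.1). The shares are of counts, not corrected for gene length.

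**Figure D3:**
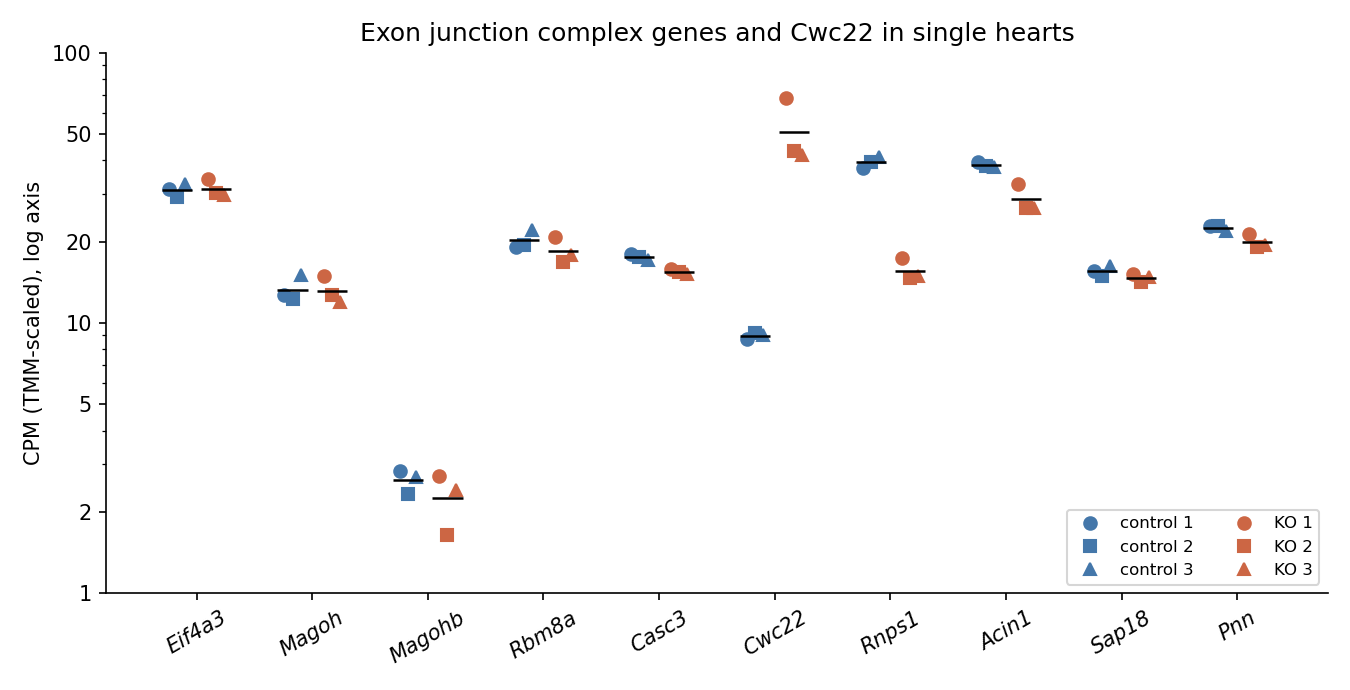
Points give the CPM of each gene in single hearts on a log axis, with lines at the group means. Cwc22 and Rnps1 are the genes whose groups lie far apart, in opposite directions, and KO 1 is the highest KO heart for every gene.

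Among the 9 genes other than Cwc22, 2 fell (Rnps1 and Acin1), none rose and 7 did not pass, where 6.03% of all tested genes passed. The 9 were chosen with earlier results of these data known. Their counts and median are a description and were not tested against those of all genes. The count was 1 when any library other than KO 1 was left out. KO and control values did not overlap in 4 of the 9, Rnps1, Acin1, Casc3 and Pnn, against 27.2% of all tested genes. The median log2 fold change of the 9 was -0.17, and that of all tested genes was -0.0032. With total counts as the only scaling both moved down, to -0.31 for the 9 and -0.14 for all genes, and the difference of the 9 from all genes stayed at -0.17.

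**Figure D4:**
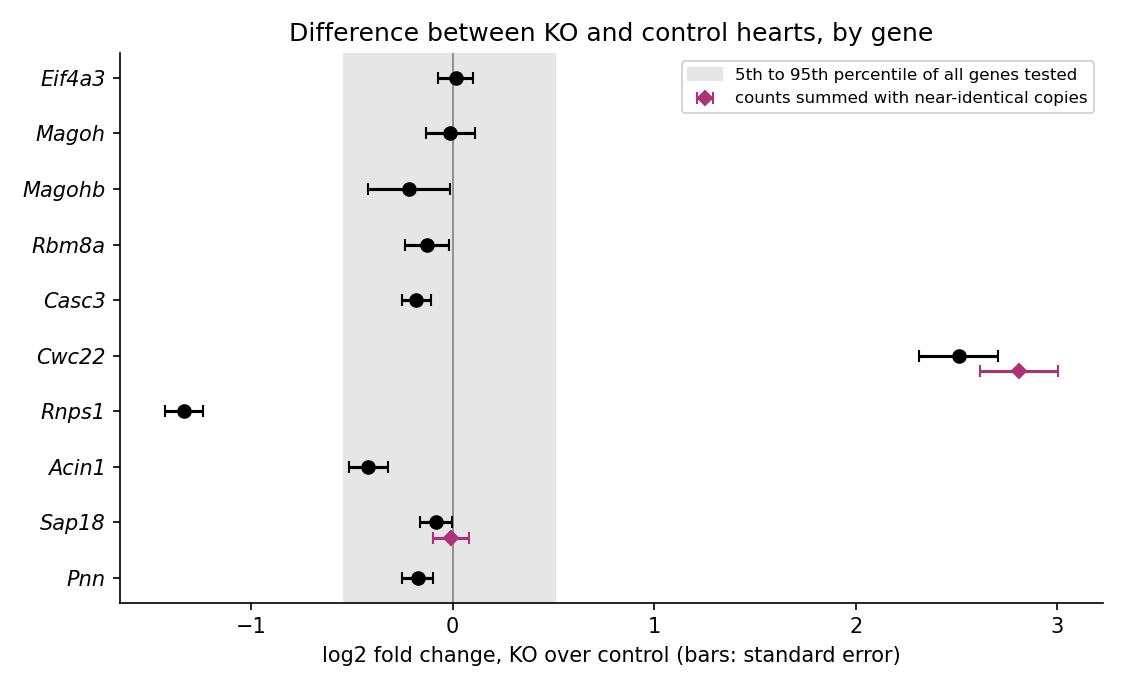
Points give log2 fold changes of KO over control with standard errors, diamonds the same with near-identical copies summed, and the grey band the 5th to 95th percentile of all tested genes. Cwc22 at 2.51 and Rnps1 at -1.33 lie outside the band and the other genes within it.

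Levels between genes can be compared per length. Divided by the length of their joined exons, Eif4a3, Rnps1 and Magoh were the most abundant in controls, at 20.6 ± 1.13, 20.1 ± 1.00 and 19.2 ± 2.16 CPM per kb (SD, n = 3 each), and did not differ beyond their spread. Acin1, Rbm8a and Pnn followed at 7.73 ± 0.181, 7.05 ± 0.581 and 6.48 ± 0.165 CPM per kb, of which Rbm8a overlapped Acin1 but not Pnn. Casc3 had 4.42 ± 0.113, Sap18 2.93 ± 0.131, Cwc22 2.36 ± 0.0632 and Magohb 2.04 ± 0.204 CPM per kb. The value of Sap18 rests on a length of 5320 bases, from an annotation in which the gene ends at 57806638. In the deposited table it ends earlier, at 57804980, and a shorter length would raise its value. Most reads of its family were also assigned to Gm10094. The place of Sap18 among the 10 genes is therefore uncertain, and the ranks below use this length. In KO hearts Cwc22 had rank 3, at 13.4 ± 3.89 CPM per kb, after Eif4a3 (20.8 ± 1.63) and Magoh (19.1 ± 2.27), and Rnps1 had rank 4 at 7.99 ± 0.766 CPM per kb. The rank of Cwc22 among the 10 genes was 9 in controls, and that of Rnps1 was 2. The ranks of Cwc22 rest on the counts assigned to it without its copies. How the KO reads divide between them cannot be settled from the counts.

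The median coefficient of variation over the 10 genes was 10.4% in KO and 4.72% in controls, beside 11.9% and 7.40% over all tested genes. Cwc22 was the most variable of the 10 in KO, at 28.9%, and had 2.68% in controls. Casc3 and Sap18 varied less in KO than in controls. Over the 6 libraries the genes whose log2 CPM followed that of Cwc22 most closely were the pseudogene Tmem181b-ps (Pearson r 0.999), Slc22a3, a transporter of organic cations (0.998), the mitochondrial gene Ptcd3 (0.997), the peroxisomal gene Pex13 (0.997) and March3, a ubiquitin ligase gene (0.993). With groups this far apart, r weighs mainly the difference between them. Tmem181b-ps also followed the spread within KO, with 9.34 CPM in KO 1 and 5.32 and 5.23 CPM in KO 2 and 3, beside 0.993 to 1.08 CPM in controls. The rest of these genes had the same order of KO hearts, with a narrower spread for their level. Slc22a3, for example, had 15.6, 12.8 and 12.5 CPM in KO 1 to 3.

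Genes that work with the complex were read from 3 lists. Of 16 tested NMD and EJC partner genes none passed in edgeR's test, and 2 had an unadjusted p under 0.05: Smg5, an adaptor of NMD decay (63.8 ± 6.00 against 54.0 ± 3.14 CPM, edgeR adjusted p = 0.185), and Nbas (22.2 ± 0.831 against 18.9 ± 1.66 CPM, edgeR adjusted p = 0.196). DESeq2 also called none of the 16, beside 1455 genes over the whole table. The share of all tested genes with an unadjusted p under 0.05 is not given here. The list's log2 fold changes ran from -0.21 to 0.24, with a median of 0.07.

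Of 18 tested mRNA export genes of the TREX list none passed in edgeR's test. The smallest p values were those of Poldip3 (12.0 ± 0.744 against 14.6 ± 0.349 CPM, edgeR adjusted p = 0.0971) and Ddx39b, the export helicase UAP56 (43.8 ± 5.73 against 55.7 ± 1.11 CPM, edgeR adjusted p = 0.0993). These 2 were also the genes with an unadjusted p under 0.05, and DESeq2 called Ddx39b alone. KO and control values did not overlap in 5 of the 18, close to the 27.2% of all tested genes, and the median log2 fold change was -0.08.

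Of 48 tested genes of the activated spliceosome, the state in which CWC22 sits, 1 fell and 47 did not pass. The gene that fell was Srrm1, a splicing coactivator that binds the complex, with 35.6, 31.1 and 31.7 CPM in KO and 42.9, 42.5 and 40.2 CPM in controls (log2 fold change -0.35, SE 0.08, edgeR adjusted p = 0.047). Its KO values lay below all controls. Srrm1 lost its call when any library other than KO 1 was left out. Ppil1, a peptidyl-prolyl isomerase, had the lowest fold change of the list (13.6 ± 3.62 against 22.0 ± 2.44 CPM, log2 fold change -0.70, edgeR adjusted p = 0.0933) and did not pass. Over the 3 lists, 1 gene was called, where 6.03% of all tested genes passed. Without KO 1, 10 genes of the lists were called, while calls over all genes went from 765 to 2896. Neither count was tested against that of all genes.

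**Figure D5:**
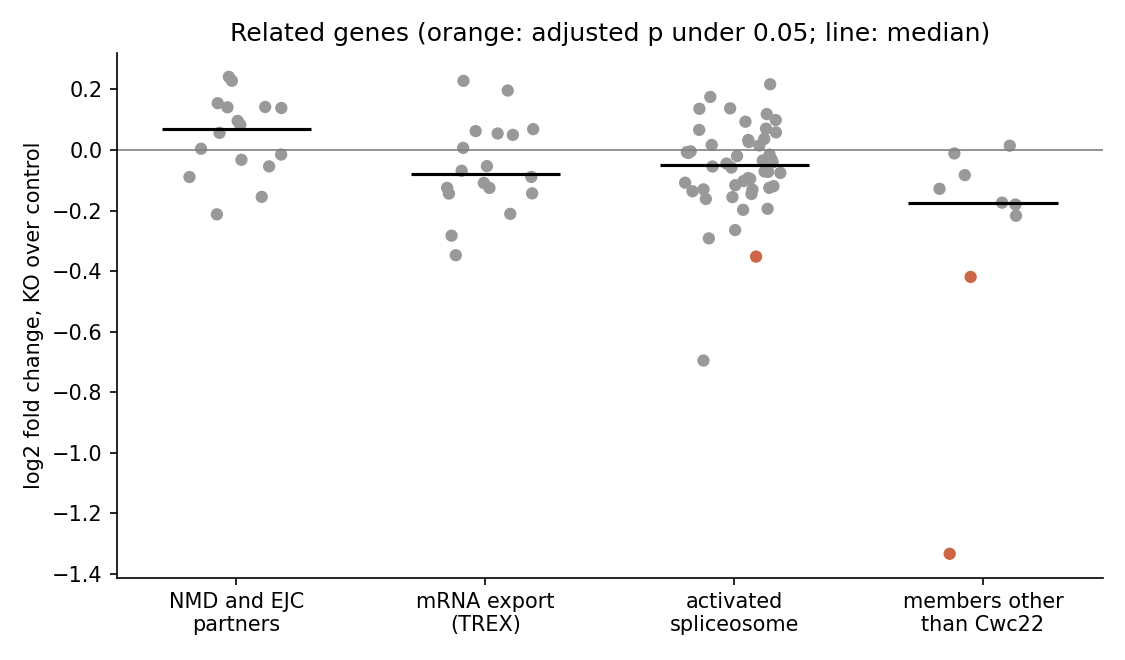
Each point is a gene's log2 fold change of KO over control in 3 lists of related genes and in the set without Cwc22, with lines at the medians of 0.07, -0.08, -0.05 and -0.17. Srrm1, Acin1 and Rnps1 are the points past the threshold.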

How the data were processed

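RNA from 6 hearts was measured once each. Per the submitters' processing notes, the tools named are cutadapt, Picard, edgeR and RSEM 1.17, with GRCm38 as the build. Their order, the annotation release and the use of strand are not stated there. The deposited raw values are whole numbers and are taken as the authors' estimated counts (expected counts) after rounding. Per the file headers, the authors also supplied a normalized signal for each library, group means of it, a log2 fold change and an adjusted p-value.

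The counts were tested with edgeR 4.0.16 (R 4.3.3): TMM factors, the default filter (138 genes removed, 12686 left), a robust quasi-likelihood F test of genotype over all 6 libraries with no covariate, and Benjamini-Hochberg adjustment over all genes at 0.05. SE is the log2 fold change over the square root of F. Log2 CPM used a prior count of 2. The steps were run on simulated data with the same dispersion for every gene and both groups and no library standing apart. That run does not show how they perform with a library like KO 1. Nothing states more than 1 library per mouse, and p-values measure the spread between 3 hearts per group.

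Near-identical genes were found with blastn 2.17.0 on GENCODE M21 transcripts, at 90% identity or more, counting alignments of 60 bases or longer that together reached 200 bases and covered 50% of whichever transcript was shorter. Coding sequences were aligned with Biopython 1.88. Printed sequences come from GENCODE M21, and lengths are the joined exons of its basic protein-coding transcripts.

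Alternatives were 3 other scalings (RLE, upper-quartile, total counts), 3 other tests (DESeq2 1.42.0, and limma 3.58.1 as limma-trend and as voom with quality weights), other filters, a block for heart number, fits without each library in turn, summed copies and an adjusted p of 0.01. Scaling by the authors' factors was added after the data were seen. The members and lists were chosen with earlier results of these data known. Named genes are all members and their copies, the genes within 1 Mb of Cwc22, the called genes of each list or else the 2 with the smallest p, Srsf4, Nkx2-5, and the 5 genes most like Cwc22 by Pearson r. Others named were chosen after their values were seen.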

Additional observations from a re-analysis of the deposited data

Results flagged for a closer look

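The authors' deposited table has an overall mean of the normalized values that is not the mean of the 6 libraries used here, and the libraries behind it were not all analysed here. For the genes below this mean was above the highest control value, which is why it is given. For Cwc22 the overall mean was 48.4, where the highest control had 9.59 and the authors' KO mean was 53.7. For each of the copies Gm13691, Gm13693, Gm13694, Gm13696, Gm13697 and Gm13698 it was 1.41, where all controls were at 0. For Acin1 it was 44.0 against 41.3 in the highest control, for Pnn 29.6 against 24.04, for Rbm8a 27.5 against 23.3 and for Casc3 21.2 against 18.9, and in these 4 genes it was also above every KO value. For Eif4a3 it was 36.1 against 34.2 and for Gm10094 45.9 against 42.8. With 3 hearts per group no single library was tested as an outlier.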

How the results depend on the processing

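The log2 fold change of Cwc22 stayed positive in all settings run, from 2.25 without KO 1 to 2.81 with copies summed (2.25 to 2.64 over the fits that left out a library), and Rnps1 stayed called in all of them. The count of called genes besides Cwc22 was 1 in place of 2 with RLE factors, the authors' factors, an adjusted p of 0.01 and the replicate block, 4 with voom, and 1 to 2 when a library was left out. Acin1 was the call lost (edgeR adjusted p = 0.054 with RLE, 0.0584 with the authors' factors, 0.0755 with the block). Casc3 passed with total counts (edgeR adjusted p = 0.04) and voom, and Pnn with voom. Related genes called numbered 1 at first, 0 with RLE, the authors' factors or 0.01, 3 with DESeq2, 5 with total counts, 15 with voom, and 0 to 10 when a library was left out. With the replicate block the related gene called was Ppil1 and not Srrm1. Over all genes 765 calls became 1163 with total counts (23.6% higher in place of 54.5%), 1455 with DESeq2, 3538 with voom, 505 with the replicate block, 291 at 0.01 and 288 to 2896 when a library was left out. Same-numbered deviations correlated at -0.06, 0.15 and -0.26, and differently numbered ones at -0.24 to 0.31. No pairing by heart number was seen, but with 3 hearts per group these values cannot exclude such a pairing. Signs turned only for values near 0: Eif4a3 had -0.0055 with upper-quartile factors, -0.12 with total counts, -0.044 with voom, and -0.052 to 0.052 when a library was left out (-0.052 without KO 1, -0.02 without control 2); Magoh had 0.018, 0.055 and 0.085 without KO 2, KO 3 and control 3 and ran from -0.11 to 0.085. The difference in Magohb share ran from -3.09 to -0.47 percentage points. The cause of these changes was not tested. At these totals 3 counts are 0.0387 to 0.0478 CPM.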
